A study of Mus musculus with 12 samples.

Results

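Chemokines are small secreted proteins that attract and position leukocytes, and this report follows their genes in mouse mammary organoids treated with a WNT-activating compound. The members were all genes of the deposited count table whose symbol is Ccl or Cxcl with a number (Ccl symbols may end in a letter), or Cx3cl1. The rule used names only and found 34 of 25210 genes. Of these, 28 had enough counts to be tested, among 15316 tested genes in all.

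Primary organoids were made from the mammary epithelium of virgin FVB/N females aged 8-11 weeks and grown for 7 days in growth-factor reduced Matrigel and minimal medium. No genotype sets the groups apart, and the treatments were the vehicle DMSO (dimethyl sulfoxide) or 1 of 3 doses of CHIR99021 (1, 1.5 and 3 µM). The compound blocks GSK3, a kinase, which stabilises β-catenin (CTNNB1) and activates WNT target genes. Cultures 1, 2 and 3 each came from 1 animal and received all 4 treatments, giving 12 RNA libraries with 3 per treatment. The sample titles also mark these cultures with the words med, min and max, which the labels do not explain.

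Chemokines are named by the spacing of their first cysteines (CC, CXC or CX3C) and act through G protein-coupled receptors. Inflammatory chemokines such as CXCL1, CXCL2 and CCL20 are induced through NF-κB when epithelium senses cytokines or microbes, and they recruit neutrophils, dendritic cells and lymphocytes. Homeostatic chemokines such as CXCL12 and CXCL14 are made without such a stimulus by stroma and resting epithelium. CXCL9, CXCL10 and CXCL11 are induced by interferon-γ. In the mammary gland, macrophages drawn in by chemokines take part in duct growth and remodelling.

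The organoid libraries held between 10.1 and 24.5 M counts (M, mega). Levels are given as counts per M counts (CPM) after scaling by the trimmed mean of M values, and 3 values in a row are always cultures 1, 2 and 3. Epithelial markers were present in every library, with a summed level of 3570 to 6130 CPM over 10 genes with DMSO and 17000 to 34000 CPM at 3 µM. There 5 of the 10 were higher and 2 lower by edgeR's quasi-likelihood test (adjusted p below 0.05). The median log2 fold change of the 10 was 0.8, so the sum does not describe the typical gene. Luminal markers were lower in 6 of 10 genes and higher in none at 3 µM, and their summed mean went from 3590 to 1920 CPM. Of 9 basal markers, 4 were higher and 5 lower, with a median log2 fold change of -4.05. Their summed mean went from 2750 to 27000 CPM. Krt5 and Krt14 are on both the epithelial and the basal list. Over all tested genes, 29.9% were higher and 27.7% lower at 3 µM by the same test. Markers of other cells were also present. The summed level of 11 macrophage markers was 296, 1530 and 3020 CPM with DMSO and 44.4, 123 and 134 CPM at 3 µM, and 9 of the 11 were lower at 3 µM. The summed level of 10 fibroblast markers was 1640, 7410 and 20600 CPM with DMSO and 181, 987 and 4590 CPM at 3 µM. In bulk RNA, fewer cells of a type and less RNA per cell cannot be told apart.

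The promoters of 7 members are shown because these genes were called at 3 µM and their promoters hold strings that resemble NF-κB or TCF/LEF binding sites. Picked in this way, they do not show how strings and calls go together, and whether these factors act here was not tested. Of the 34 members, 24 had a promoter in the RefSeq table (build GRCm38.p6, the C57BL/6J reference, 250 bases before to 50 after the start). Each sequence runs 5′ to 3′ on the strand of its gene, which is the minus strand for Cxcl9 and the plus strand for the others, and is 130 bases long except that of Ccl17 (160 bases). The first 4, of genes that rose, end 1 base before the transcription start. The last 3, of genes that fell, end 71 bases (Cxcl9 and Cxcl12) and 81 bases (Ccl17) before it. Capitals in the first 5 mark a match to the NF-κB-like strings GGGNNTTTC or GGAANTTCC on either strand, and capitals in Cxcl12 and Ccl17 mark a match to the TCF/LEF-like strings CTTTGAT or CTTTGAA.
Cxcl1, chr5:90891115-90891244: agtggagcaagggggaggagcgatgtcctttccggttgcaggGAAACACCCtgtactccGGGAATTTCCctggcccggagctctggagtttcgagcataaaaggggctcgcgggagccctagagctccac
Cxcl2, chr5:90903769-90903898: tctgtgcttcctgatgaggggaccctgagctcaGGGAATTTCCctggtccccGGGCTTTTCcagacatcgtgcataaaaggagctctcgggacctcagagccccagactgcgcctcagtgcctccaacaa
Cxcl3, chr5:90785971-90786100: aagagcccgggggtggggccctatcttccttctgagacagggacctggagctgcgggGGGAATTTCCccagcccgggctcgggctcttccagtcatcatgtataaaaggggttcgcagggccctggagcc
Ccl20, chr1:83116636-83116765: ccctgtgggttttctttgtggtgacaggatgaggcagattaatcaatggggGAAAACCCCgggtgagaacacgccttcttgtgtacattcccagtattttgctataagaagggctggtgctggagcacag
Cxcl9, chr5:92328150-92328279: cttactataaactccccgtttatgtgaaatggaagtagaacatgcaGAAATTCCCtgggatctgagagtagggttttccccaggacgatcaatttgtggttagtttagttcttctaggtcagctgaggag
Cxcl12, chr6:117168335-117168464: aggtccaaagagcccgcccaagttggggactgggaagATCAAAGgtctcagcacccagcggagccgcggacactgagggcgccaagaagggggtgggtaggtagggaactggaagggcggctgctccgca
Ccl17, chr8:94810213-94810372: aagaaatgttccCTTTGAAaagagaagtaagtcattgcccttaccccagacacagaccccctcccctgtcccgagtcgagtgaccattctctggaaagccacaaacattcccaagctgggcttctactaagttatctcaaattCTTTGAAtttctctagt

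An NF-κB-like string was present in 9 of the 27 promoters listed for these 24 members, against 5.14% of the 32851 promoters in the table. The 9 were those of Ccl1, Ccl9, Ccl12, Ccl20, Cxcl1, Cxcl2, Cxcl3, Cxcl9 and Cxcl10. In Cxcl1, Cxcl2 and Cxcl3 the 2 strings overlap in a single run of 10 bases. It spans 71 to 62 bases before the start in Cxcl1, 97 to 88 in Cxcl2 and 73 to 64 in Cxcl3. These 3 genes are neighbours and close relatives, so their promoters are not independent. A TCF/LEF-like string, the kind read by the partners of β-catenin, was present in 5 of the 27, against 8.65% of all promoters. The 5 were those of Ccl8, Ccl17, Ccl25, Cxcl12 and Cxcl15. Of the members with a string of either kind, Ccl8, Ccl9, Ccl12, Ccl25, Cxcl10 and Cxcl15 were not called at 3 µM by edgeR's quasi-likelihood test. Ccl1 was not tested. Among called members, no promoter of Ccl22 (higher) or of Cx3cl1, Cxcl14 and Ccl27a (lower) held a string. A match describes letters in this window and is not a measured site.

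**Figure D1:**
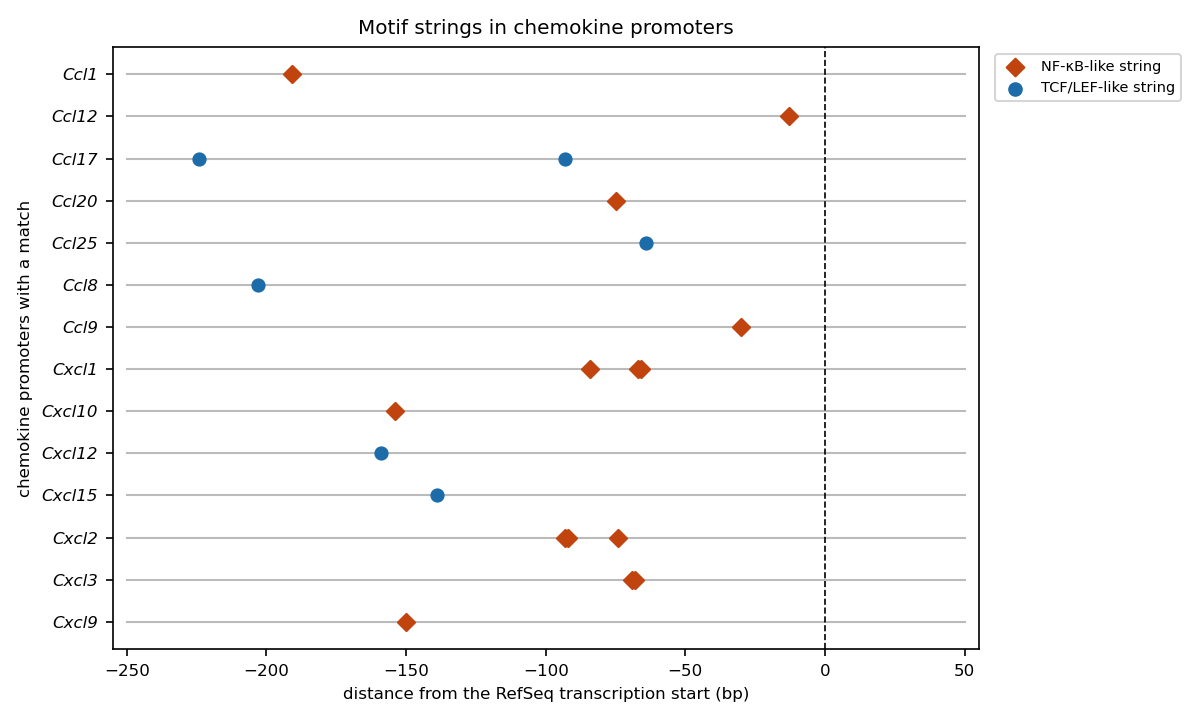
Positions of the motif strings in the 14 chemokine promoters that hold one, as distance in bases from the RefSeq transcription start. Orange diamonds are NF-κB-like strings and blue circles are TCF/LEF-like strings. No member promoter holds both kinds, and the strings of Cxcl1, Cxcl2 and Cxcl3 lie within 100 bases before the start.

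At 3 µM CHIR99021 the chemokines moved in both directions. Of the 28 tested members, 7 rose and 7 fell against DMSO (edgeR's quasi-likelihood test, Benjamini-Hochberg adjusted p below 0.05). Those that rose were Ccl20, Cxcl3, Cxcl2, Ccl22, Cxcl1, Ccl5 and Cxcl16, and those that fell were Cxcl12, Ccl17, Cxcl17, Cx3cl1, Cxcl9, Cxcl14 and Ccl27a. The background was large, since 57.5% of all tested genes were called at 3 µM, 29.9% higher and 27.7% lower. The members' share of 50% was near this background. Their log2 fold changes ran from -4.34 to 6.41 with a median of 0.35, against a median of -0.03 over all tested genes. With the culture as a block, 20 members were called, 10 in each direction, against 68.9% of all genes (34.1% higher, 34.8% lower). Without culture 2 only 5 were called (Ccl20, Cxcl2, Cxcl3, Cx3cl1 and Cxcl17), and the share of all genes was 31.1%. Scaling by library size alone shifted all genes down, with 3395 called higher (22.2%) and 5404 lower (35.3%) against 4575 and 4239, and left the members at 7 and 7.

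At 1.5 µM, 6 of the 28 members were called, against 27.3% of all genes. Ccl20, Ccl22 and Ccl5 rose, against 15.4% of all genes called higher. Cx3cl1, Cxcl14 and Cxcl17 fell, against 11.8% called lower. All 6 were also called at 3 µM. With the culture as a block the number was 12, against 46.7% of all genes (22.3% higher, 24.3% lower), and the 6 added members were Ccl2, Cxcl1 and Cxcl16 (higher) and Ccl3, Ccl6 and Cxcl12 (lower). Leaving out culture 2 brought the count at 1.5 µM to 0 (2.98% of all genes), and leaving out the 3 µM library of culture 3 brought it to 10 of 29 tested members (32.4% of all genes). At 1 µM no member was called by edgeR's quasi-likelihood test, against 0.242% of all genes. An unadjusted p under 0.05 in that test was seen in 5 members, and the share of all genes under it was not counted. Ccl20 alone was called at 1 µM with the block (adjusted p = 0.0197, against 5.61% of all genes called and 2.55% called higher) and by DESeq2 (adjusted p = 0.00699, against 3.08% of all genes called). The median log2 fold change of the 28 members was -0.03 at 1 µM and -0.09 at 1.5 µM, against 0 over all tested genes at both doses.

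**Figure D2:**
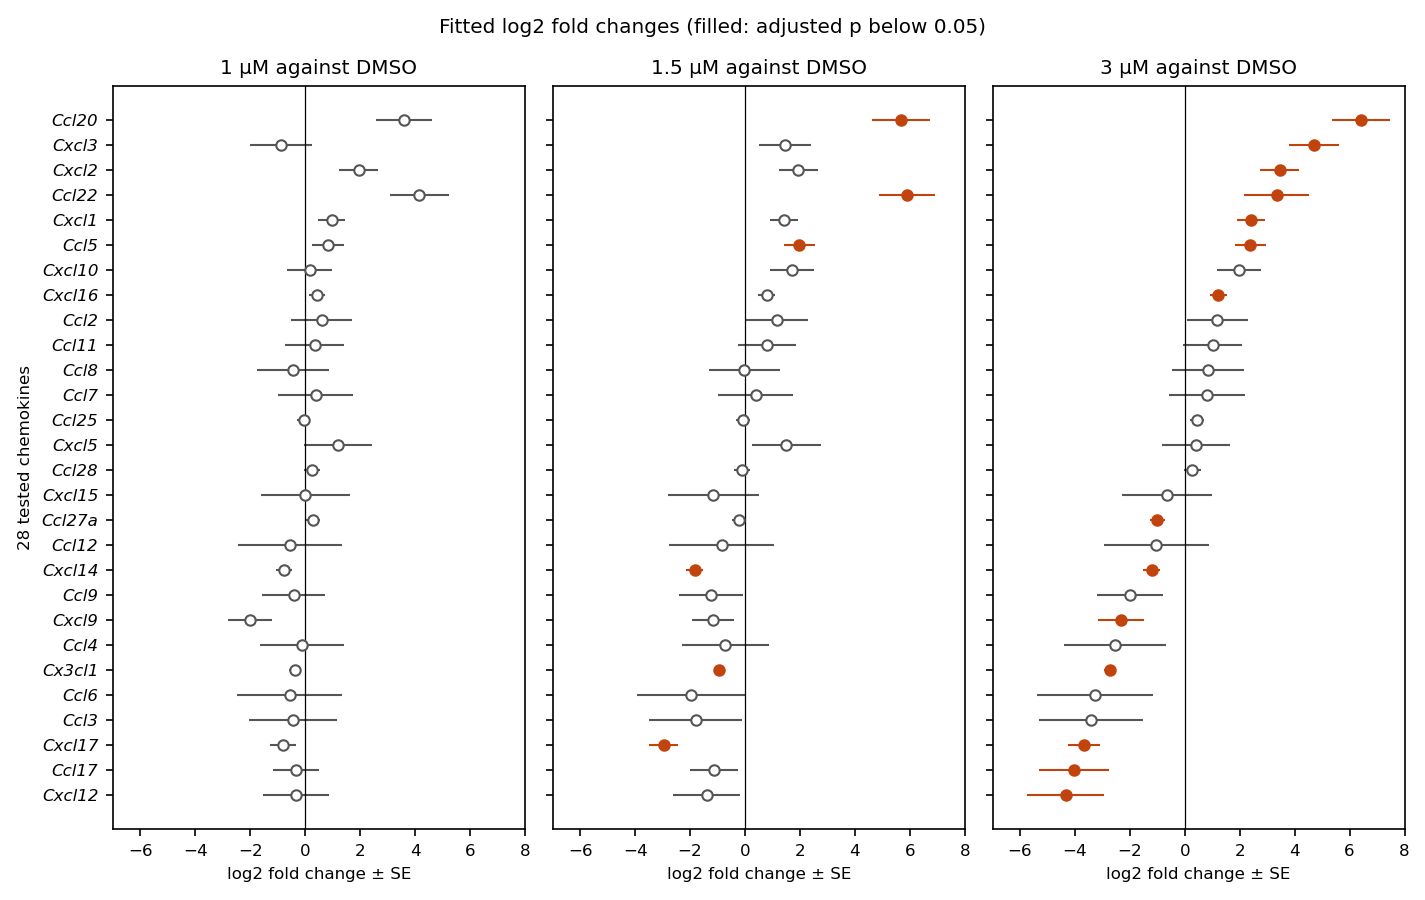
Log2 fold changes against DMSO of the 28 tested chemokines at 1, 1.5 and 3 µM CHIR99021, in the order of the change at 3 µM. Points are fitted values, bars are ± SE, and filled points have an adjusted p below 0.05 (0, 6 and 14 members). Ccl20 stands at 6.41 and Cxcl12 at -4.34 on the right.

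Between neighbouring doses fewer members differed. From 1 to 1.5 µM, 1 of 28 members was called (Cxcl17, lower), against 5.43% of all genes called and 0.992% called lower. From 1.5 to 3 µM, Cxcl3 was called higher and Ccl22 and Cx3cl1 lower, against 29.7% of all genes (17% higher, 12.7% lower). With the culture as a block 5 members were called from 1 to 1.5 µM (21.9% of all genes), adding Ccl20 and Ccl22 (higher) and Cxcl12 and Cxcl14 (lower). From 1.5 to 3 µM the block gave 7 (46.7% of all genes, 24.7% higher and 22% lower), adding Cxcl1 (higher) and Ccl3, Ccl27a and Cxcl12 (lower). A straight line over all 4 doses gave 14 called slopes, 7 in each direction, against 58.2% of all genes (30.2% higher, 28% lower). These were the 14 genes of the 3 µM comparison with Cxcl10 in place of Ccl22. Without culture 2 the count was 8 (37.6% of all genes). With the block it was 18, 9 in each direction, against 64.5% of all genes. The block added the slopes of Ccl2, Ccl7 and Ccl8 (0.35, 0.33 and 0.45 log2 units per µM, adjusted p 0.00448 to 0.00723) and of Ccl3, Ccl4 and Ccl6 (-1.22, -0.80 and -1.20, adjusted p 0.000183 to 0.0126). It ended the slope calls of Cxcl9 and Cxcl10.

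The ligands of CXCR2, the receptor that guides neutrophils, were split. Of the 5 members in this role, Cxcl1, Cxcl2 and Cxcl3 were called higher at 3 µM, against 29.9% of all tested genes. Cxcl5 and Cxcl15 were not called in any comparison between treatments. All 5 lie within 147 kb on chromosome 5.
Cxcl1, a neutrophil attractant of inflamed epithelium, stood at 8.8, 13.6 and 13 CPM with DMSO. It stood at 12.7, 31.8 and 24.3 CPM at 1 µM, at 17.3, 35.4 and 41.8 CPM at 1.5 µM and at 27.3, 65.4 and 94.3 CPM at 3 µM. Every culture had more Cxcl1 at each step, and the 3 µM libraries all lay above the DMSO libraries. At 3 µM the log2 fold change of Cxcl1 was 2.41 ± 0.507 (SE, n = 3 libraries per group), with an edgeR adjusted p of 0.00249. The block called Cxcl1 also at 1.5 µM (1.33, adjusted p = 0.00135, against 0.0562 without it) and from 1.5 to 3 µM (0.94, adjusted p = 0.00631, against 0.148).
Cxcl2, a close relative of Cxcl1, stood at 0.489, 0.508 and 0.431 CPM with DMSO and 1.32, 3.36 and 0.852 CPM at 1 µM. It stood at 1.72, 2.92 and 0.811 CPM at 1.5 µM and at 2.27, 4.3 and 9.11 CPM at 3 µM. The DMSO libraries lay close together and below all others, and culture 3 had the least Cxcl2 at 1 and 1.5 µM but the most at 3 µM. Cxcl2 passed the count filter through its CHIR99021 libraries, the treatments in which it was high. At 3 µM the log2 fold change of Cxcl2 was 3.45 ± 0.718 (edgeR adjusted p = 0.00229).
Cxcl3, the third of these relatives, stood at 0.0444, 0.203 and 0.269 CPM with DMSO and 0.152, 0.0487 and 0.0568 CPM at 1 µM. It stood at 0.127, 0.115 and 1.16 CPM at 1.5 µM and at 3.69, 3.59 and 6.07 CPM at 3 µM. The DMSO libraries held 1, 2 and 5 Cxcl3 counts and the 3 µM libraries 47, 56 and 88, so the change came at the highest dose. Cxcl3 passed the count filter through those 3 µM libraries, the treatment in which it was high. For Cxcl3 the log2 fold change was 4.71 ± 0.915 against DMSO (edgeR adjusted p = 0.00153) and 3.27 ± 0.807 from 1.5 to 3 µM (adjusted p = 0.0137). Because the 3 transcripts are alike, reads may have been shared or lost between them.

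Cxcl5 and Cxcl15 did not follow their neighbours. Cxcl5, made by epithelial cells under stimulation, stood at 14.9, 27.1 and 58.8 CPM with DMSO and 10.7, 31.2 and 188 CPM at 1 µM. It stood at 9.93, 25.9 and 249 CPM at 1.5 µM and at 18, 42.6 and 73 CPM at 3 µM. Culture 3 had the most Cxcl5 at every treatment, and treatments overlapped. Its log2 fold change at 3 µM was 0.41 ± 1.24 (edgeR adjusted p = 0.793). Cxcl15 ranged from 0 to 1.93 CPM and did not exceed 34 counts in any library.
Cxcr2 itself, among the receptors, rose by a log2 fold change of 3.31 (edgeR adjusted p = 0.00789), from 0 to 2 counts per DMSO library to at most 16 at 3 µM. Of 9 neutrophil markers in the table, Elane, Ly6g and Ngp had no count in any 3 µM library. Ngp had none with DMSO either, Ly6g none at 1 µM, and Elane and Ngp none at 1.5 µM. Of the 5 markers that were tested, Ltf and Cxcr2 were higher and Csf3r, Camp and Itgam lower at 3 µM (29.9% and 27.7% of all genes). The summed level of the 9 was 70.1 to 104 CPM with DMSO and 150 to 1490 CPM at 3 µM. Most of it was Ltf, which mammary epithelium also makes, at 43.4 ± 33.9 CPM with DMSO and 1020 ± 763 CPM at 3 µM (SD, n = 3 each). The part of neutrophils in these levels was not tested.

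Ccl20, the only known chemokine ligand of CCR6 and an attractant of immature dendritic cells and Th17 cells, had the largest increase among the tested members at 3 µM. It stood at 0.311, 0.102 and 0.108 CPM with DMSO and 1.98, 4.68 and 0.398 CPM at 1 µM. It stood at 12.2, 13.3 and 4.75 CPM at 1.5 µM and at 26, 19.2 and 5.11 CPM at 3 µM. Every culture was higher at each step without overlap with DMSO, and culture 3 was lowest at the 3 doses of CHIR99021. Ccl20 passed the count filter through its CHIR99021 libraries, the treatments in which it was high. In counts, Ccl20 went from 10 over the DMSO libraries to 704 over the 3 µM libraries, a depth-corrected ratio of 72.2 with a 95% exact interval of 39 to 151 (counting error only). Fitted log2 fold changes of Ccl20 were 5.68 ± 1.04 at 1.5 µM (edgeR adjusted p = 0.00368) and 6.41 ± 1.06 at 3 µM (adjusted p = 0.000591). The step of Ccl20 from 1 to 1.5 µM was called with the block (2.29, adjusted p = 0.00474) and not without it (adjusted p = 0.166). The receptor gene Ccr6 had at most 1 count in any library.

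Cxcl16 and Cx3cl1 encode the 2 chemokines made as membrane-anchored proteins that can be shed, and they went in opposite directions. Cxcl16, the ligand of CXCR6, stood at 33, 26 and 16.9 CPM with DMSO and 35.1, 43.4 and 24.5 CPM at 1 µM. It stood at 44, 57.6 and 29.9 CPM at 1.5 µM and at 54, 66.5 and 55.8 CPM at 3 µM. Each culture was higher at every step, and the 3 µM libraries lay above all DMSO libraries. Cxcl16 rose at 3 µM by 1.22 ± 0.302 on the log2 scale (edgeR adjusted p = 0.00619), and with the block it was called at 1.5 µM too (0.78, adjusted p = 0.00798, against 0.0739). Cxcl16 overlaps Zmynd15 on the opposite strand, and whether the counting used strand is not stated.
Cx3cl1 (fractalkine), the ligand of CX3CR1 on monocytes and macrophages, had the highest mean CPM of all members. It stood at 281, 228 and 328 CPM with DMSO and 218, 238 and 187 CPM at 1 µM. It stood at 159, 167 and 106 CPM at 1.5 µM and at 39.5, 37.7 and 48.7 CPM at 3 µM. The 3 µM libraries lay far below all others, and culture 2 was not lower at 1 µM than with DMSO. Cx3cl1 had log2 fold changes of -0.95 ± 0.193 at 1.5 µM (edgeR adjusted p = 0.00587) and -2.73 ± 0.205 at 3 µM (adjusted p = 5.34e-06). From 1.5 to 3 µM it was -1.78 ± 0.198 (adjusted p = 0.000358). The slope of Cx3cl1 was -0.97, -0.93 and -0.93 log2 units per µM in cultures 1, 2 and 3. Its receptor gene Cx3cr1 had up to 24 counts per DMSO library and none in any 3 µM library.

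**Figure D3:**
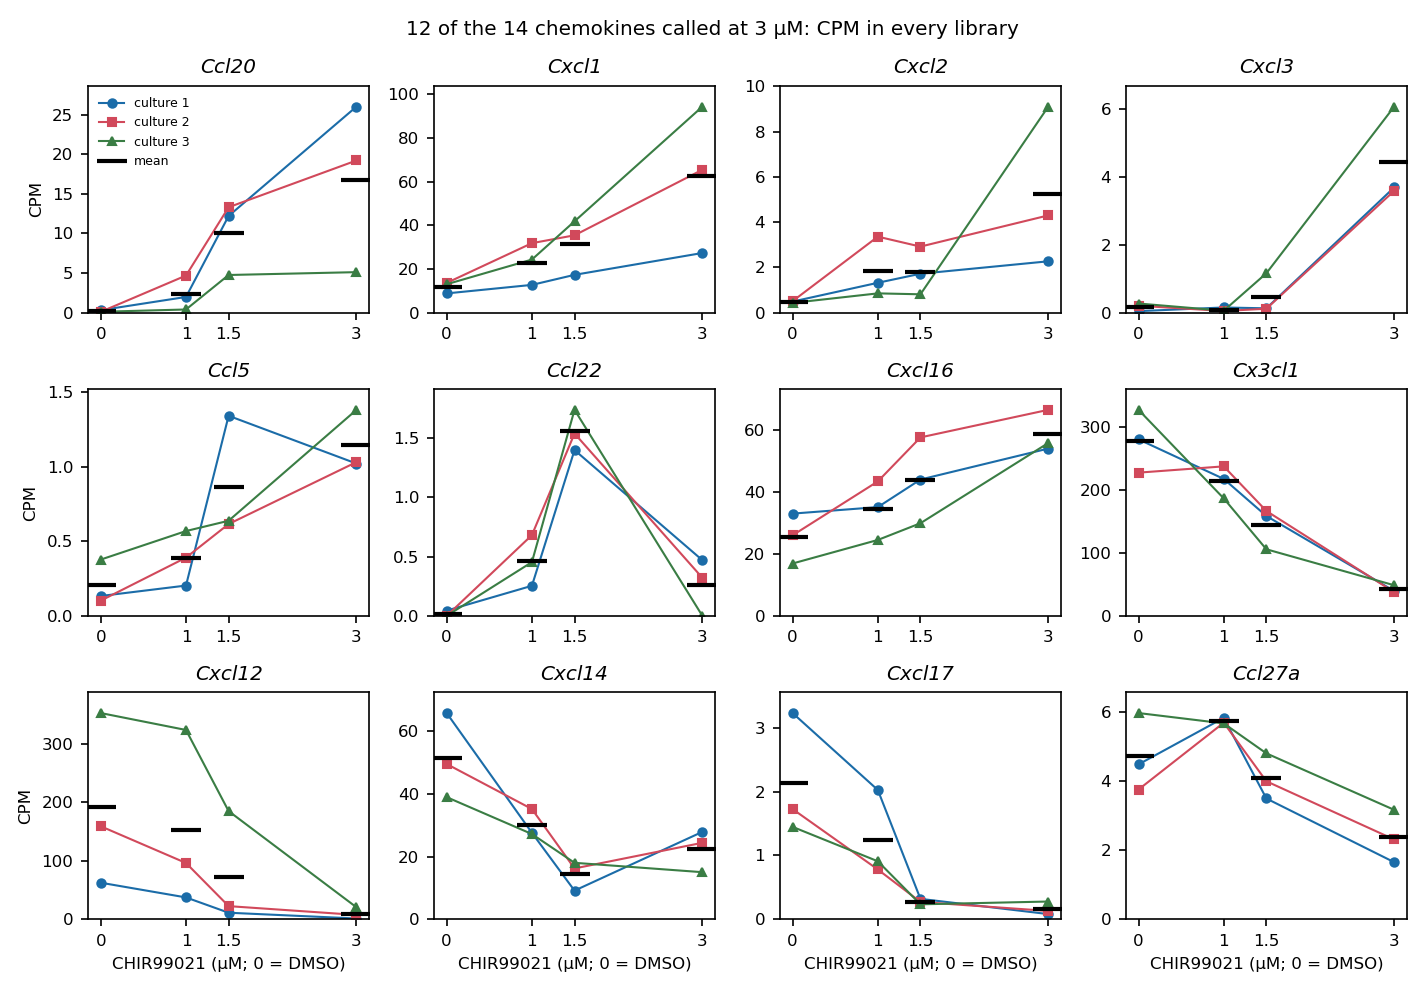
CPM of 12 of the 14 chemokines called at 3 µM against CHIR99021 dose (µM, DMSO at 0). Each line is 1 culture and black bars are means of 3 libraries. Ccl20, Cxcl1 and Cxcl3 have their highest means at 3 µM, Ccl22 peaks at 1.5 µM, and Cx3cl1 is lowest at 3 µM in all cultures. The 2 called genes left out, Ccl17 and Cxcl9, are below 3 CPM in every library.

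Cxcl12, a stromal chemokine that holds cells bearing CXCR4 and is also bound by the scavenger ACKR3, fell furthest among the tested members. It stood at 62.3, 159 and 353 CPM with DMSO and 37.1, 96.1 and 324 CPM at 1 µM. It stood at 10.9, 22.2 and 185 CPM at 1.5 µM and at 0.941, 7.12 and 20.2 CPM at 3 µM. Each culture was lower at every step, and culture 3 stayed the highest throughout. At 3 µM the log2 fold change of Cxcl12 was -4.34 ± 1.4 (edgeR adjusted p = 0.0224), and with the culture as a block it was -4.67 (adjusted p = 1.59e-05). The call without the block was lost when the 3 µM library of culture 1 or of culture 2, or the DMSO library of culture 3, was left out (adjusted p up to 0.075). The block also called Cxcl12 at 1.5 µM (-2.04, adjusted p = 0.00191, against 0.422 without it), from 1 to 1.5 µM (-1.47, adjusted p = 0.0194, against 0.655) and from 1.5 to 3 µM (-2.64, adjusted p = 0.00104, against 0.12). Fibroblast markers ran in the same order of cultures. Of these, 2 of 10 were lower at 3 µM and 9 of 10 with the block (27.7% and 34.8% of all genes). The part of fibroblasts in the fall was not tested.
Of the receptors, Cxcr4 fell from a mean of 86.5 ± 5.89 to 20 ± 4.23 CPM (SD, n = 3 each), a log2 fold change of -2.11 ± 0.23 (edgeR adjusted p = 4.45e-05). Ackr3 stood at 40.2 ± 3.06 CPM with DMSO and 29 ± 6.46 CPM at 3 µM and was not called (-0.47 ± 0.308, adjusted p = 0.215).

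Both orphan CXC chemokines, whose receptors are debated, fell. Cxcl14, abundant in many resting epithelia, stood at 65.9, 49.6 and 39 CPM with DMSO and 27.6, 35.2 and 27.2 CPM at 1 µM. It stood at 9.1, 16.2 and 18 CPM at 1.5 µM and at 27.9, 24.4 and 15 CPM at 3 µM. All treated libraries lay below all DMSO libraries, and cultures 1 and 2 were lowest at 1.5 µM. Cxcl14 had log2 fold changes of -1.83 ± 0.308 at 1.5 µM (edgeR adjusted p = 0.00243) and -1.20 ± 0.303 at 3 µM (adjusted p = 0.00681). The step from 1.5 to 3 µM was 0.64 ± 0.302 and was not called (adjusted p = 0.137), but it was called when culture 3 was left out (1.02, adjusted p = 0.0381). From 1 to 1.5 µM Cxcl14 was called with the block (-1.03, adjusted p = 0.0393) and not without it (adjusted p = 0.0739).
Cxcl17, a mucosal chemokine, stood at 3.24, 1.73 and 1.45 CPM with DMSO and 2.03, 0.78 and 0.909 CPM at 1 µM. It stood at 0.318, 0.269 and 0.232 CPM at 1.5 µM and at 0.0784, 0.128 and 0.276 CPM at 3 µM. The libraries at 1.5 and 3 µM lay below all others. Cxcl17 had log2 fold changes of -2.96 ± 0.528 at 1.5 µM (edgeR adjusted p = 0.00318) and -3.67 ± 0.579 at 3 µM (adjusted p = 0.000428). In counts, 117 over the DMSO libraries stood against 7 at 3 µM, a depth-corrected ratio of 16.3 (95% exact interval 7.67 to 41.4). The step of Cxcl17 from 1 to 1.5 µM (-2.16, adjusted p = 0.0422) was lost without any 1 of 10 libraries (adjusted p up to 0.137). Cxcl17 overlaps the antisense gene 4732471J01Rik.

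The CXCR3 ligands, which attract activated T cells, were rare and unequal. Cxcl9 stood at 0.533, 2.94 and 2.69 CPM with DMSO and 0.152, 0.828 and 0.511 CPM at 1 µM. It stood at 1.66, 0.615 and 0.464 CPM at 1.5 µM and at 0.549, 0.513 and 0.138 CPM at 3 µM. Cultures 2 and 3 were lower at every dose than with DMSO, whereas culture 1 was not, and the groups overlapped at 3 µM. The log2 fold change of Cxcl9 at 3 µM was -2.32 ± 0.839 (edgeR adjusted p = 0.0358). The call was lost when the DMSO library of culture 2 or 3, or any 1 of the 3 µM libraries, was left out (adjusted p up to 0.0956). Its slope of -0.73 per µM (adjusted p = 0.0374) was not called with the culture as a block (adjusted p = 0.0522), nor without any 1 of 5 libraries (adjusted p up to 0.114).
Cxcl10 stood at 0.4, 0.812 and 0.916 CPM with DMSO and 0.812, 1.07 and 0.454 CPM at 1 µM. It stood at 3.56, 1.65 and 1.74 CPM at 1.5 µM and at 4.7, 3.4 and 0.276 CPM at 3 µM. Cultures 1 and 2 were highest at 3 µM, and culture 3 was lowest there. The slope of Cxcl10 was 0.71 ± 0.267 log2 units per µM (edgeR adjusted p = 0.0363), and was not called with the block (adjusted p = 0.0675). Leaving out any 1 of 7 libraries ended that call (adjusted p up to 0.161). At 3 µM Cxcl10 was not called (1.99 ± 0.803, adjusted p = 0.0552), but it was when the 3 µM library of culture 3 was left out (2.51, adjusted p = 0.00238). DESeq2 with all libraries also called Cxcl10 at 3 µM (1.98, adjusted p = 0.0302), against 59.9% of all genes. Cxcl10 and Cxcl11 overlap Art3 on the opposite strand, and Cxcl11 had at most 13 counts in a library.

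Ccl17 and Ccl22, which share the receptor CCR4 of regulatory and Th2 T cells, lie with Cx3cl1 within 66.4 kb of chromosome 8, and the 3 neighbours differed in their course. Ccl22 stood at 0.0444, 0 and 0 CPM with DMSO and 0.254, 0.682 and 0.454 CPM at 1 µM. It stood at 1.4, 1.54 and 1.74 CPM at 1.5 µM and at 0.47, 0.321 and 0 CPM at 3 µM. All cultures peaked at 1.5 µM, where the libraries lay above those of every other treatment. Only 1 Ccl22 count was found over the DMSO libraries, against 92 at 1.5 µM, a depth-corrected ratio of 82.9 with a 95% exact interval of 14.5 to 3310. Ccl22 was called at 1.5 µM (log2 fold change 5.89 ± 1.02, edgeR adjusted p = 0.00269) and from 1.5 to 3 µM (-2.55 ± 0.739, adjusted p = 0.0268). The fold change against DMSO rests on that single count. Ccl22 passed the count filter through its 1.5 µM libraries, the treatment in which it was high. From 1 to 1.5 µM Ccl22 was called with the block (1.75, adjusted p = 0.048) and not without it (adjusted p = 0.169). The 3 µM call against DMSO (3.34 ± 1.18, adjusted p = 0.0322) was lost when the DMSO or the 3 µM library of culture 2, the DMSO library of culture 3 or the 3 µM library of culture 1 was left out (adjusted p up to 0.114). The step down from 1.5 µM was lost without any 1 of the 1.5 µM libraries or the 3 µM library of culture 2 (adjusted p up to 0.0739).
Ccl17 stood at 0.578, 0.102 and 0.7 CPM with DMSO and 0.305, 0.78 and 0.0568 CPM at 1 µM. It stood at 0.127, 0.384 and 0.116 CPM at 1.5 µM and at 0, 0.0642 and 0 CPM at 3 µM. A single Ccl17 count was left over the 3 µM libraries, against 27 with DMSO, a depth-corrected ratio of 26.3 (95% exact interval 4.34 to 1080). The fall was called at 3 µM (-4.03 ± 1.28, edgeR adjusted p = 0.0208), and was lost without the 3 µM library of culture 1 or of culture 3 (adjusted p up to 0.0621). Only 10 of the 12 fits without 1 library kept Ccl17 above the count filter. Its slope (-1.11 per µM, adjusted p = 0.0205) was lost without the 3 µM library of culture 1 (adjusted p = 0.0519). Dendritic and Langerhans cell markers, of cells known to make Ccl17 and Ccl22, were lower at 3 µM in 3 of 3 tested genes (27.7% of all genes). Cd207 and Ccr7 had no count there, nor had Cd207 at 1.5 µM, and the part of these cells was not tested.

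The largest role was that of the inflammatory CC chemokines, which act on the shared CC receptors of monocytes, eosinophils and T cells. Of 11 such members in the table, 10 were tested. At 3 µM 57.5% of all tested genes were called (29.9% higher), and of these 10 members 1 was called. That was Ccl5, which draws lymphocytes and eosinophils, with 0.133, 0.102 and 0.377 CPM with DMSO and 0.203, 0.39 and 0.568 CPM at 1 µM. It stood at 1.34, 0.615 and 0.637 CPM at 1.5 µM and at 1.02, 1.03 and 1.38 CPM at 3 µM. The libraries at 1.5 and 3 µM lay above all DMSO libraries, which held 1 to 7 Ccl5 counts. Ccl5 passed the count filter through its 1.5 and 3 µM libraries, the treatments in which it was high. Its log2 fold change was 1.97 ± 0.562 at 1.5 µM (edgeR adjusted p = 0.0263) and 2.39 ± 0.563 at 3 µM (adjusted p = 0.00458). The call at 1.5 µM was lost without the DMSO library of culture 1 or 2 or the 1.5 µM library of culture 1 (adjusted p up to 0.103).

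The other 9 tested CC chemokines of this role all differed between cultures, as described further on, and were not called between treatments. With the culture as a block, 6 of the 9 were called at 3 µM, a share near the 68.9% of all genes called in that model. In that model Ccl2, Ccl7 and Ccl8 were higher, and Ccl3, Ccl4 and Ccl6 lower. Ccl2, the main monocyte attractant, stood at 9.15, 25.1 and 48.5 CPM with DMSO and 5.59, 30 and 91 CPM at 1 µM. It stood at 12.7, 41.4 and 131 CPM at 1.5 µM and at 13, 57.9 and 118 CPM at 3 µM. Within each culture Ccl2 was higher at 3 µM than with DMSO, but the treatments overlapped. With the block the log2 fold change was 1.00 (adjusted p = 0.00574), against 1.19 ± 1.12 (adjusted p = 0.382) without it, and at 1.5 µM it was 0.88 (adjusted p = 0.0177, against 0.468). Ccl2 overlaps Gm17268 on the opposite strand.
Ccl8, another monocyte attractant, stood at 4.49, 26.4 and 137 CPM with DMSO and 6.5, 28.5 and 90.4 CPM at 1 µM. It stood at 10.3, 61.1 and 94.3 CPM at 1.5 µM and at 12.2, 124 and 166 CPM at 3 µM. All cultures were higher at 3 µM than with DMSO, by 1.24 on the log2 scale with the block (adjusted p = 0.015). Ccl7, a monocyte attractant next to Ccl2, rose with the block by 0.92 (adjusted p = 0.0099), from 1.96, 13.3 and 37.2 CPM to 5.25, 21.1 and 65.3 CPM.
Ccl6, expressed by myeloid cells, stood at 3.15, 31 and 149 CPM with DMSO and 0.706, 2.25 and 16.1 CPM at 3 µM, a log2 fold change of -3.54 with the block (adjusted p = 0.000537), and the block called it at 1.5 µM as well (-2.83, adjusted p = 0.00237). Ccl6 overlaps E230016K23Rik on the opposite strand. Ccl3, an attractant made by activated macrophages, went from 0.178, 1.73 and 9.26 to 0, 0.0642 and 0.966 CPM (-3.55 with the block, adjusted p = 0.00017). With the block Ccl3 was also lower at 1.5 µM (-1.83, adjusted p = 0.00542) and from 1.5 to 3 µM (-1.72, adjusted p = 0.0224). Ccl4, its relative, went from 0.0889, 0.508 and 2.69 to 0.0784, 0.128 and 0.345 CPM (-2.48 with the block, adjusted p = 0.0104). The fall in these 3 genes ran beside that of the macrophage markers, of which C1qa dropped from 42.2 ± 28.8 to 2.18 ± 1.72 CPM. The part of those cells in it was not tested.
Ccl9 ranged from 2.84 to 75 CPM, Ccl11 (eotaxin) from 2.43 to 67.9 CPM and Ccl12 from 0.0889 to 23.4 CPM, and none of the 3 was called between treatments with or without the block. Pf4, a platelet and macrophage chemokine outside the name rule, was not called at 3 µM either (-1.26, edgeR adjusted p = 0.467). DESeq2 without the block called the slopes of Ccl3 (-1.23, adjusted p = 0.0311) and Ccl9 (-0.7, adjusted p = 0.0458), against 60.8% of all genes.

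Ccl27a, the only member with a role at CCR10 that changed, fell at 3 µM. It encodes a chemokine of skin epithelium that draws T cells bearing CCR10. It stood at 4.49, 3.76 and 5.98 CPM with DMSO and 5.84, 5.7 and 5.68 CPM at 1 µM. It stood at 3.5, 4 and 4.81 CPM at 1.5 µM and at 1.65, 2.31 and 3.17 CPM at 3 µM. The 3 µM libraries lay below all others, and the log2 fold change was -1 ± 0.271 (edgeR adjusted p = 0.00976). The step from 1.5 to 3 µM (-0.78 ± 0.27) was not called (adjusted p = 0.0516) but was with the block (-0.80, adjusted p = 0.0139). Ccl27a has near-identical copies and overlaps Il11ra1 on the opposite strand, so its level is uncertain. Ccl28, a mucosal CCR10 ligand, ranged from 1.88 to 4.35 CPM, and Ccl25, the CCR9 ligand, from 1.78 to 3.59 CPM. Neither was called between treatments, and Ccl25 overlaps Elavl1 on the opposite strand. The receptor gene Ccr10 fell by 2.46 on the log2 scale, to at most 2 counts per 3 µM library (edgeR adjusted p = 0.00474).

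The remaining 6 members did not pass the count filter. The highest count in any library was 20 for Ccl21a, 17 for Ccl19, 13 for Cxcl11, 9 for Cxcl13, 2 for Ccl24 and 1 for Ccl1. Ccl21a, a CCR7 ligand gene that also has near-identical copies, had 6, 9 and 20 counts with DMSO and 0 in each 3 µM library. In a fit without the filter it was called lower at 3 µM (edgeR adjusted p = 0.00552, against 17.2% of all 25210 genes called lower), while the other 5 were not. With the filter, endothelial markers were lower at 3 µM in 7 of 8 genes, against 27.7% of all tested genes. Their summed level was 296 to 613 CPM with DMSO and 34.3 to 104 CPM at 3 µM, and their part was not tested.

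Per kilobase of exon, levels can be set beside one another between genes. With DMSO, Ccl8 had the highest level at 110 ± 139 CPM per kb, followed by Cx3cl1 at 71 ± 12.7, Ccl6 at 34 ± 43.1 and Cxcl14 at 28.2 ± 7.42 (SD, n = 3 each). At 3 µM the order was Ccl8 at 197 ± 156 CPM per kb, Ccl2 at 55.3 ± 46.3, Ccl7 at 38.1 ± 38.9 and Cxcl1 at 33.2 ± 17.9. Cx3cl1 was the tenth there at 10.7 ± 1.5 CPM per kb and Ccl20 the ninth at 11.8 ± 7.5. The spread between cultures is as large as the gaps between most neighbours in these orders.

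The cultures differed in 14 of the 28 tested members, against 28.8% of all genes, by a test of the culture term with the treatment in the model (edgeR adjusted p below 0.05). They were Ccl2, Ccl3, Ccl4, Ccl6, Ccl7, Ccl8, Ccl9, Ccl11, Ccl12, Ccl20, Cxcl1, Cxcl5, Cxcl12 and Cxcl16. Of these, 9 were lowest in culture 1, intermediate in culture 2 and highest in culture 3 within all 4 treatments, namely Ccl2 to Ccl4, Ccl6 to Ccl9, Cxcl5 and Cxcl12. Ccl7 had the lowest adjusted p (5.66e-05). Without culture 1 the count was 8 of 29 tested members, against 7.44% of all genes. The summed macrophage and fibroblast markers had the same order in 4 of 4 treatments, and 10 of 11 macrophage and 9 of 10 fibroblast markers differed between cultures. Their part in the chemokine levels was not tested. Epithelial markers differed in 2 of 10. The overlap with the 3 µM calls without the block was Ccl20, Cxcl1, Cxcl12 and Cxcl16. In that fit 10 of the 14 culture-dependent members were not called at 3 µM, and 10 of the 14 called there did not pass the culture test. Differences between cultures widen the spread in that fit, so this split does not separate responses to dose from differences between cultures. With the block Ccl2, Ccl3, Ccl4, Ccl6, Ccl7 and Ccl8 were called at 3 µM as well, against 68.9% of all genes.

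**Figure D4:**
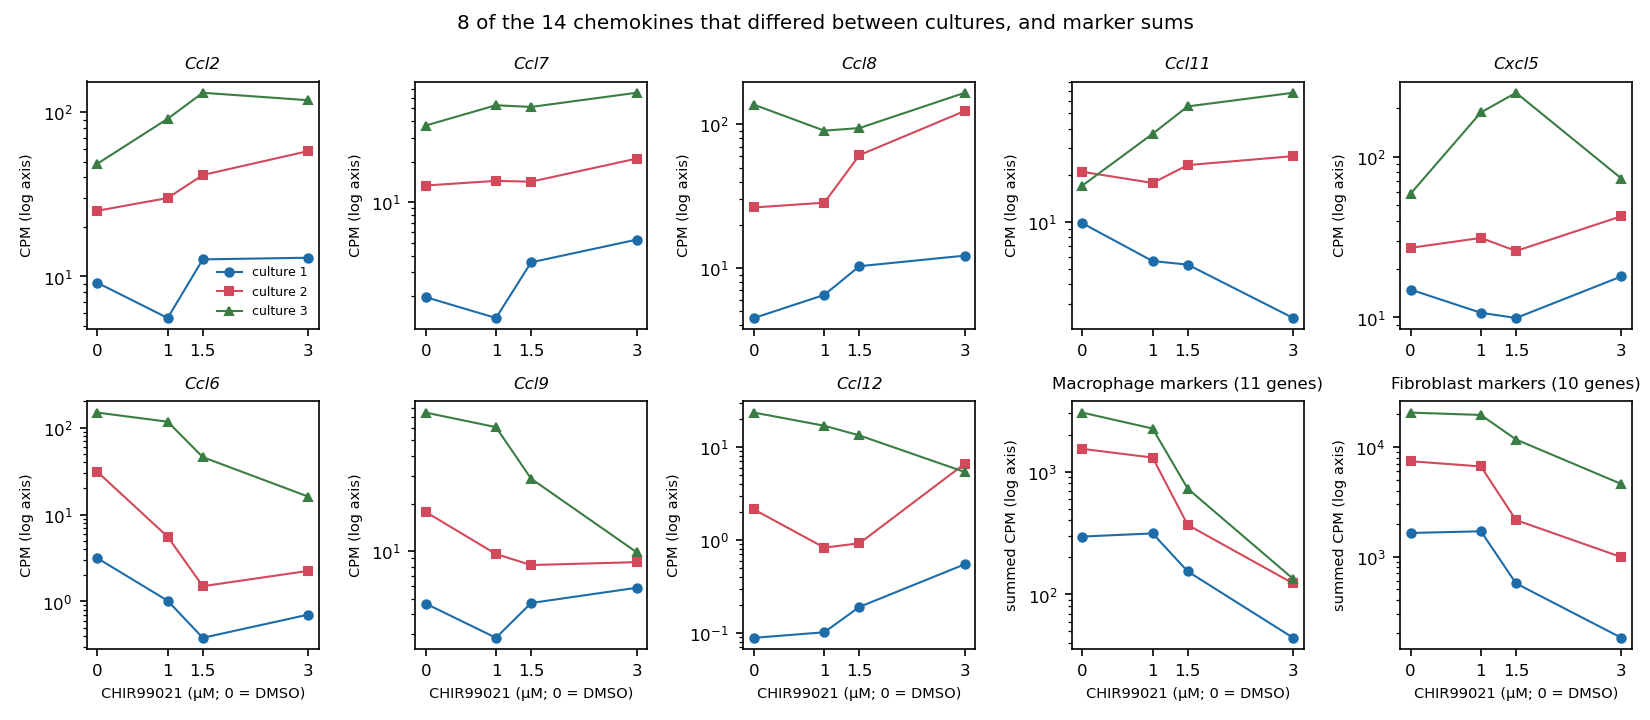
CPM (log axis) of 8 of the 14 chemokines that differed between cultures, and summed CPM of macrophage and fibroblast markers, against CHIR99021 dose (µM, DMSO at 0). Each line is 1 culture. Culture 1 lies lowest in every panel, and both marker sums are lower at 3 µM than with DMSO in every culture while Ccl2, Ccl7 and Ccl8 are higher.

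Whether the response to dose differed between cultures was tested as a difference of slopes. No member and no other gene was called (edgeR, 0% of all genes). An unadjusted edgeR p under 0.05 was seen in 7 members, but the share of all genes under it was not counted, so it sets no member apart. DESeq2 called Ccl11 (adjusted p = 6.25e-06) and Ccl9 (adjusted p = 0.0055), against 1.46% of all genes. Ccl11 had slopes of -0.66, 0.14 and 0.64 log2 units per µM in cultures 1, 2 and 3 (edgeR adjusted p = 0.201). In culture 1 it went from 9.86 CPM with DMSO to 2.43 CPM at 3 µM and in culture 3 from 17.2 to 67.9 CPM. Ccl12 had slopes of 0.93, 0.71 and -0.72 (edgeR adjusted p = 0.508).

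The receptors of these chemokines were mostly scarce in the organoids. Of 22 receptor genes in the table, 13 were tested, and 2 were higher and 3 lower at 3 µM, against 29.9% and 27.7% of all genes. With the culture as a block 2 were higher and 7 lower, against 34.1% and 34.8%. The 4 with the lowest adjusted p were Cxcr4, Ackr4 (a scavenger of CCR7 ligands, -2.89 ± 0.524, adjusted p = 0.001), Ccr10 and Cxcr2, by edgeR. The fifth, named after its values were seen, was Ccr9 (1.36, adjusted p = 0.0299). Ccr2, Ccr6, Ccr7, Cxcr3 and Cx3cr1 had no count in any 3 µM library. Ccr6 had none at 1.5 µM either, and Cxcr1 went the other way, with counts only at 3 µM.

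Of 18 tested genes that feed or restrain NF-κB, 7 were higher and 2 lower at 3 µM (29.9% and 27.7% of all genes), with a median log2 fold change of 0.26. Those with the lowest adjusted p were the feedback inhibitor Tnfaip3 (1.99, from 17.5 ± 1.36 to 69.2 ± 11.7 CPM, 8.56e-05), the ubiquitin ligase gene Birc3 (1.21, 0.000131) and the IκB-like genes Nfkbiz (1.73, 0.000303) and Bcl3 (1.40, 0.000471), by edgeR. The kinase gene Map3k14 and the adaptor gene Traf1 fell.

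Of 14 tested cytokine genes that induce or accompany chemokines, 10 were higher at 3 µM by edgeR, against 29.9% of all genes, and the other 4 were not called, with a median log2 fold change of 2.67. At 1.5 µM, 6 were higher, against 15.4% of all genes. Il1a, an alarmin stored in epithelium, went from 0.151 ± 0.0578 CPM with DMSO through 1.67 ± 0.564 and 7.38 ± 1.9 to 28.8 ± 6.22 CPM at 3 µM (SD, n = 3 each). Its log2 fold change at 3 µM was 7.61 ± 0.429 (edgeR adjusted p = 1.59e-06). The IL-1 family cytokine Il18 (5.31, adjusted p = 0.000154), the neutrophil growth factor Csf3 (5, 0.000206) and the IL-1 antagonist Il1rn (3.04, 0.000208) followed.
Of 17 pattern recognition and IL-1, IL-17 and TNF receptor genes, 4 were higher and 7 lower at 3 µM (29.9% and 27.7% of all genes), or 5 and 10 with the block (34.1% and 34.8%). The lowest adjusted p-values were those of the endotoxin receptor gene Tlr4 (-0.94, 0.000147), the flagellin receptor gene Tlr5 (1.60, 0.000625), Il17re (-1.17, 0.00066) and the IL-1 co-receptor gene Il1rap (0.84, 0.00119), by edgeR. Squamous epithelial markers were higher at 3 µM in 12 of 12 genes, against 29.9% of all genes. They rose over the same doses from a summed mean of 120 to 34600 CPM, and their relation to the chemokines was not tested.

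Chemokine genes lie in clusters on the chromosome, and calls often differed between members of 1 cluster. At 3 µM 57.5% of all tested genes were called (29.9% higher, 27.7% lower). With the culture as a block the share was 68.9% (34.1% higher, 34.8% lower). Whether calls in clusters differ from this background was not tested. In the chromosome 5 cluster of Cxcl5, Cxcl3, Cxcl15, Cxcl1 and Cxcl2, 3 of 5 rose at 3 µM. In the cluster of Cxcl9, Cxcl10 and Cxcl11, spanning 44.2 kb, Cxcl9 fell. On chromosome 11, the 5 tested genes of the 270 kb cluster from Ccl2 to Ccl1 were not called at 3 µM without the block, and Ccl2, Ccl7 and Ccl8 were higher with it. In the 139 kb cluster of Ccl5, Ccl9, Ccl6, Ccl3 and Ccl4, Ccl5 rose without the block and Ccl6, Ccl3 and Ccl4 fell with it. Clusters were taken as members less than 200 kb apart in GRCm38.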

How the data were processed

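The authors deposited whole-number read counts per Ensembl gene for the 12 libraries, and a log2 table that holds the same counts rescaled and was not used. Libraries were polyA-selected, stranded TruSeq libraries sequenced on an Illumina instrument, per the labels' protocols. The submitters' processing notes name TopHat2 2.1, Bowtie 1.1.0, HTSeq and DESeq2 and the builds GRCm38 and mm10; the strand setting and annotation release are not given in the sources used here. Coordinates are those of GRCm38, and overlaps come from GENCODE M21, in which all 34 members were found.

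Counts (10.1 to 24.5 M per library) were filtered with filterByExpr and scaled by TMM (trimmed mean of M values), and tested with edgeR 4.0.16 (R 4.3.3; glmQLFit robust, glmQLFTest, two-sided) with a mean per treatment and 1 spread for all libraries. Benjamini-Hochberg adjustment ran over 15316 genes, with a threshold of 0.05. The SE is the size of the log2 fold change divided by the square root of F. DMSO was set at 0 µM for slopes. Replicates of a group differed by more than sampling noise (chi-square per degree of freedom at least 13.8). The procedure was tested on simulated counts.

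Replicate numbers are animals, per the labels. Deviations from the group means correlated in all 18 same-number pairs (0.177 to 0.84), and edgeR's common biological coefficient of variation fell from 0.305 to 0.156 with the replicate block. The block's value is printed where it changes a member's call or moves a count by over 1.5 times.

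Alternatives were the block, DESeq2 1.42.0, no filter, library-size scaling, fits of 2 groups, and fits without each library or, chosen after seeing the data, each culture. The test of slopes between cultures was also added after seeing the data. Members, gene lists, roles and tests were chosen with earlier results of these data known. All tested members are named. Those called against DMSO or by the slope, and the 5 with the highest mean CPM, have every library given. Of each other list, up to 4 genes called at 3 µM with the lowest adjusted p are named, and any further gene named was chosen for its role or after its values were seen. Levels per kb use the union of exons. Counting intervals cover counting error only, since no molecular identifiers are described. A list of signalling genes and some single genes are not reported here.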

Additional observations from a re-analysis of the deposited data

How the results depend on the processing

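Over all pairs of a member's treatment or slope call and an alternative that tested the member, 641 kept direction and threshold. Another 96 lost the threshold, with no change of direction. Alternatives in which a member was not tested are not among these pairs. The replicate block moved the counts of called members to 1 (1 µM), 12 (1.5 µM), 5 (1 to 1.5 µM) and 7 (1.5 to 3 µM), and the count at 3 µM to 20. Its shares of all genes called were 5.61%, 46.7%, 21.9%, 46.7% and 68.9% in that order. DESeq2 gave 1 at 1 µM (3.08% of all genes), 3 from 1 to 1.5 µM (10.7%) and 2 for slope differences (1.46%). It gave 9 at 1.5 µM (32.9%), adding Cxcl1, Cxcl2 and Cxcl16. From 1 to 1.5 µM, no filter and a fit of those 2 groups gave 0 (1.96% and 6.54% of all genes). Without 1 library or culture, the counts ran from 0 to 0 at 1 µM, 0 to 10 at 1.5 µM, 5 to 15 at 3 µM, 0 to 3 from 1 to 1.5 µM, 1 to 5 from 1.5 to 3 µM, 8 to 15 for the slope, 8 to 17 for cultures and 0 to 0 for slope differences. Over the same fits the share of all genes called ran from 2.98% to 32.4% at 1.5 µM and 31.1% to 59.8% at 3 µM. It ran from 0% to 9.61% from 1 to 1.5 µM and 2.25% to 36.2% from 1.5 to 3 µM. For the slope it was 37.6% to 57.7%, and for cultures 7.44% to 37.3%. The lowest counts at 1.5 µM (0), 3 µM (5) and the slope (8) came without culture 2, and that for cultures (8) without culture 1. Ccl20, Cxcl2, Cxcl3, Cx3cl1 and Cxcl17 kept their 3 µM calls in all alternatives. Scaling by library size moved the median of all genes at 3 µM to -0.23, with 14 members still called, 7 in each direction, and changed the shares of all genes called higher and lower (3395 and 5404, against 4575 and 4239). The causes of these changes were not tested. Depth limits the members with few counts, above all Ccl22 and Ccl17.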
